A study of Mus musculus with 16 samples.

Results

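Gene expression was compared between GFP+ and GFP- cells sorted from mouse intestinal tumours of the genotype labelled AKVPL. The 8 libraries whose titles name AKVPL tumours, 4 of GFP+ and 4 of GFP- cells, were taken from a series of 16, and no library of the other genotype entered the main comparison. The question, as the series' design text puts it, concerns tumour cells with and without Lgr5, and GFP is read here as a reporter of that gene. Both groups carry the same genotype label, and no treatment, age or sex is given for either. The label names the tumour and does not say that every sorted cell has that genotype. The labels do not spell out the letters AKVPL. In the published naming of such mouse lines they include a change in Apc, a villin Cre driver that acts in intestinal epithelium, loss of Trp53, and an Lgr5 reporter. For all 8 libraries the title gives colon and the tissue field small intestine, so the site is not settled. The labels call the tumours derived and give no host, number of animals, number of clones or gate other than GFP. Nothing says that replicates came from separate animals, so the p-values below rest on variation among these libraries alone, and that variation may be technical.

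Lgr5 is a receptor for R-spondins, secreted proteins that strengthen WNT signalling, and it marks the dividing stem cells at the base of intestinal crypts. In the normal gut these cells renew themselves next to Paneth cells and give rise to absorptive and secretory cells, and WNT signalling holds them in the stem cell state. In tumours with mutant Apc the WNT pathway is active without its ligands, and cells with and without Lgr5 still lie side by side. Cells without a reporter can also be cells of the stroma, vessels or immune system, since a GFP- gate does not by itself select tumour cells.

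The gene of the sort was examined first. In what follows the 4 values of a group are in the order of replicates 1 to 4, and CPM means counts per 1e6 after scaling libraries by edgeR's trimmed mean of M values (TMM). Lgr5 was measured at 290, 296, 248 and 341 CPM in GFP+ and 75.8, 61.4, 63.4 and 79.9 CPM in GFP-. The gene lies on GRCm38 chr10:115450314-115587780. The lowest GFP+ library was above 3 times the highest GFP- library, and the log2 fold change was 2.07 ± 0.12 (SE; edgeR adjusted p = 6.5e-07). Smoc2, a secreted matrix protein of crypt base cells, stood at 676, 701, 606 and 761 CPM in GFP+ and 336, 357, 358 and 351 CPM in GFP-. Prom1, a membrane protein of epithelial progenitors known as CD133, stood at 971, 958, 895 and 887 CPM in GFP+ and 545, 472, 520.1 and 490.5 CPM in GFP-. For neither gene did the groups overlap, and the log2 fold changes were 0.97 ± 0.08 (edgeR adjusted p = 5e-06) for Smoc2 and 0.87 ± 0.08 (edgeR adjusted p = 6.72e-06) for Prom1. Epcam, an adhesion molecule of all intestinal epithelium, was present in both sorts, at 1958, 1868, 1884 and 1873 CPM in GFP+ and 1598, 1456, 1506 and 1303 CPM in GFP-. It was 0.37 ± 0.09 (edgeR adjusted p = 0.00451) log2 units higher in GFP+, a call that ended when libraries were scaled on epithelial genes (0.15). Epcam is itself among those epithelial genes, so the loss of the call is not an independent check. The RNA of Lgr5 was thus enriched in GFP+ cells but not absent from GFP- cells, where it stood at 70.1 ± 9.09 CPM (SD, n = 4).

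**Figure D1:**
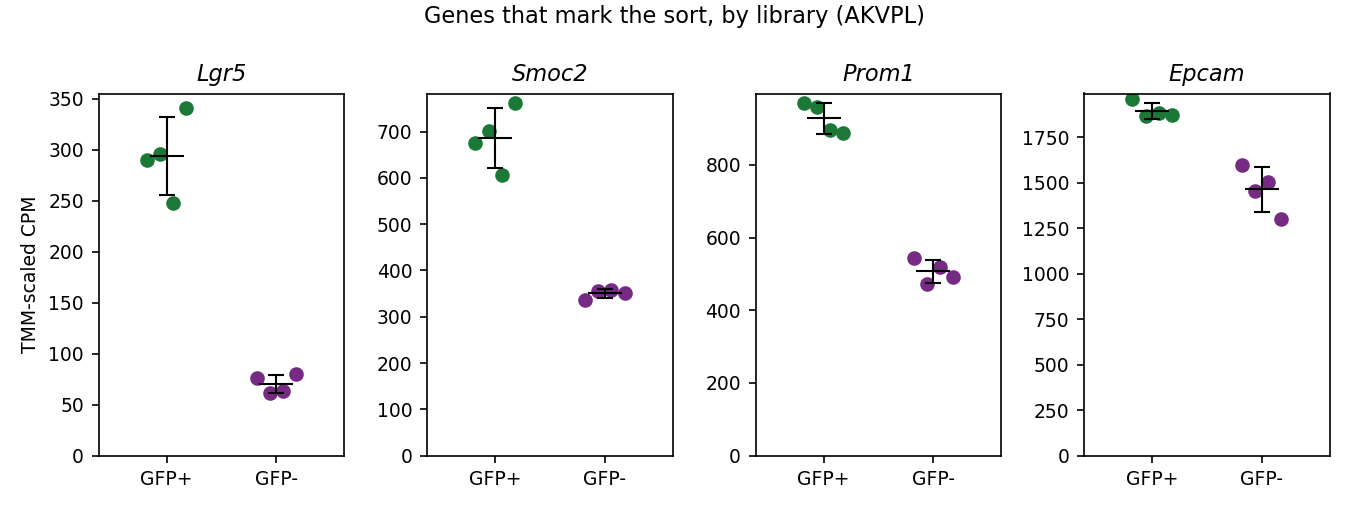
Counts per 1e6 after TMM scaling (vertical axis, from 0) of Lgr5, Smoc2, Prom1 and Epcam in the 4 GFP+ and 4 GFP- libraries, with 1 point per library and bars for the mean and SD. The 4 GFP+ points lie above the 4 GFP- points for each gene, and the ratio of the means is largest for Lgr5 (293.7 against 70.1) and smallest for Epcam (1896 against 1466).

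Total counts ran from 10.881 M (M, 1e6 counts) to 34.502 M, at 27.7 ± 7.62 M in GFP+ and 20.9 ± 7.25 M in GFP- (SD, n = 4). Genes of the mitochondrial genome took 3.694% to 7.002% of counts in GFP+ and 2.873% to 4.851% in GFP-. The first principal component held 83.9% of the variance and parted the sorts, and GFP+ replicate 3 lay nearer to the GFP- libraries (-37.8) than the other GFP+ libraries (-69.3 to -60.9). The tissue was checked on defining genes: Vil1, a villus cytoskeleton protein, stood at 407 ± 14.7 CPM in GFP+, whereas Cdx2, the main intestinal identity factor, stood at 1.46 ± 0.275 CPM and its relative Cdx1 had 1 count over the 4 GFP+ libraries and 0 over the GFP- ones. Of genes behind the genotype letters, Apc and Trp53 did not pass the test, with log2 fold changes of 0.44 ± 0.16 and -0.33 ± 0.16. Apc passed without GFP+ replicate 4 (0.53) or GFP- replicate 4 (0.60), in the fit over all 16 libraries (0.54), with DESeq2's Wald test (0.42) and with limma on the deposited RPKM (0.42). Trp53 passed as lower without GFP- replicate 4 (-0.46), with epithelial scaling (-0.55) and with a replicate block (-0.30). Gene totals do not resolve alleles, so these values do not check the genotype.

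Of 17365 genes tested, 6488 (37.4%) differed between GFP+ and GFP- cells (edgeR quasi-likelihood test, Benjamini-Hochberg adjusted p under 0.05). Of these, 2831 (16.3% of genes tested) were higher and 3657 (21.1%) were lower in GFP+. Counts of called list members below are to be read beside these shares. The lower genes changed by more. Changes of at least 2-fold numbered 375 upward and 2214 downward, and changes of at least 4-fold 21 and 1277. The sorts did not overlap in any library for 6458 genes (37.2%). The direction of small changes depended on scaling. When libraries were scaled on 22 genes of an epithelial list, here called epithelial scaling, the median of all genes moved by -0.22 log2 units, and 778 genes (4.48%) were higher and 5210 (30.0%) lower. The share of calls that were higher was thus 43.6% with TMM and 13.0% with epithelial scaling, and it was 57.8% in a fit over all 16 libraries of the series. All 778 were among the 2831, and all 3657 lower genes stayed lower. The median of the epithelial list itself was 0.10 with TMM and -0.12 with epithelial scaling, so neither setting centred that list. Calls that ended or were added with epithelial scaling are to be read with this limit. Since these are bulk samples, fewer cells of a type and less RNA per cell cannot be told apart.

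**Figure D2:**
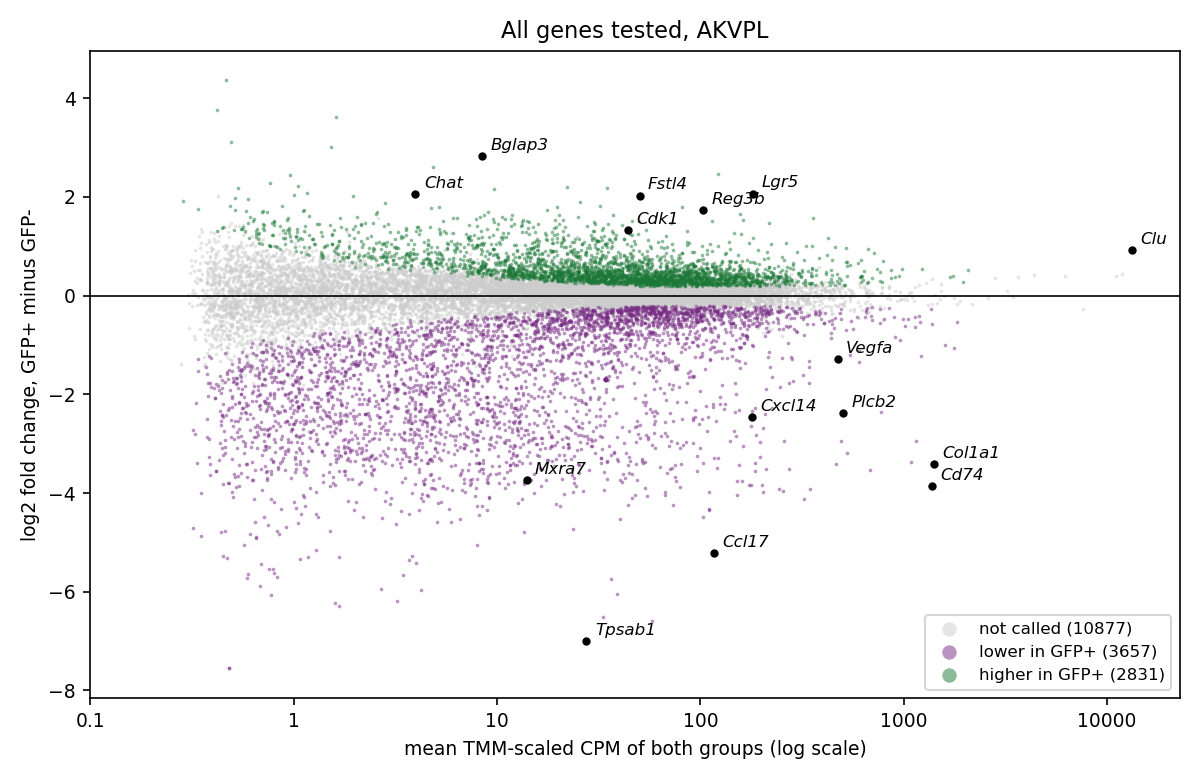
Each point is 1 of 17365 genes, with the mean CPM of both groups (horizontal, log scale) against the log2 fold change of GFP+ minus GFP- (vertical), coloured by the edgeR call. The 3657 lower genes reach down to below -7 while few of the 2831 higher genes pass 2.

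Genes of crypt base stem cells were more often higher than lower in GFP+. Over all genes tested 16.3% were higher and 21.1% lower. Of 25 tested members of that list 15 were higher and 3 lower in GFP+, with a median log2 fold change of 0.41 beside 0.03 over all genes, and Lgr5, Smoc2 and Prom1 are among the 15. Slc12a2, a sodium, potassium and chloride transporter of crypt base cells, stood at 565, 642, 602 and 537 CPM in GFP+ and 295, 244, 239.5 and 273 CPM in GFP- (log2 fold change 1.16 ± 0.09, edgeR adjusted p = 3.13e-06). Lrig1, a membrane protein that restrains ERBB receptors, stood at 293, 316, 309.7 and 353 CPM in GFP+ and 202, 199, 213 and 235 CPM in GFP- (0.58 ± 0.08, edgeR adjusted p = 0.000187). Cdca7, a chromatin protein of dividing progenitors, stood at 49.9, 36.7, 33.5 and 53.5 CPM in GFP+ and 25.2, 17.6, 19.3 and 18 CPM in GFP- (1.11 ± 0.17, edgeR adjusted p = 0.000364). The sorts were fully separate for these 3 genes. Against this direction went Ascl2, the transcription factor that specifies crypt base stem cells. It was higher in GFP- cells, at 29, 24, 29.8 and 36 CPM in GFP+ and 41.3, 34.2, 43.5 and 42.1 CPM in GFP- (log2 fold change -0.44 ± 0.12, edgeR adjusted p = 0.0145), although the groups overlapped and the call was lost in the fit over all 16 libraries (-0.33). Cd44, a surface glycoprotein and WNT target, was also lower in GFP+ (-0.22 ± 0.08), a call that ended in 7 of the 8 fits that left out a library (-0.25 to -0.18), and with library totals (-0.19), no filter (-0.18) or all 16 libraries (-0.12). Olfm4, a secreted crypt base protein, was near the limit of detection in both sorts, with means of 0.454 ± 0.367 and 1.45 ± 0.97 CPM in GFP+ and GFP-. Hopx, Bmi1 and Msi1, described in other crypt stem or progenitor cells, did not pass the test, with log2 fold changes of 0.03 ± 0.15, -0.08 ± 0.11 and -0.01 ± 0.13. With epithelial scaling 8 members of the list were higher and 4 lower, and the median was 0.18.

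WNT signalling genes were sorted by role. Of 24 tested members of the list of WNT feedback genes and targets, 11 were higher and 2 lower (median 0.30). Rnf43 and Znrf3 are ubiquitin ligases that remove WNT receptors from the membrane. Rnf43 stood at 558, 508, 499.8 and 631 CPM in GFP+ and 342, 293, 329 and 375 CPM in GFP- (log2 fold change 0.72 ± 0.10, edgeR adjusted p = 0.000152), with no overlap. Znrf3 was 0.52 ± 0.13 higher, with 1 GFP- library (replicate 4, 85.4 CPM) inside the GFP+ range. Nkd1, a cytoplasmic inhibitor of the pathway, stood at 478, 482, 471 and 601 CPM in GFP+ and 343, 377, 369.6 and 439.5 CPM in GFP- (0.41 ± 0.10, edgeR adjusted p = 0.00806). Axin2, part of the complex that degrades beta-catenin, did not pass the test, at 373, 346, 272 and 419 CPM in GFP+ and 247, 239.9, 203 and 355 CPM in GFP- (0.43 ± 0.18, edgeR adjusted p = 0.0823). It passed with a replicate block (0.45), over all 16 libraries (0.54), and without GFP+ replicate 3 (0.54) or GFP- replicate 4 (0.62). Among nuclear factors Sp5, a target of the pathway, stood at 5.83, 4.7, 4.77 and 7.94 CPM in GFP+ and 2.2, 2.74, 2.36 and 2.45 CPM in GFP- (1.24 ± 0.22, edgeR adjusted p = 0.000668), and Tcf7, which binds beta-catenin, was 0.49 ± 0.07 higher. Dkk3, a secreted protein of the Dickkopf family that is also made by stroma, was the member with the largest fall (-2.93 ± 0.21). With epithelial scaling only 3 members were higher and 5 lower, and the calls of Nkd1, Znrf3 and Tcf7 ended.

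The ligands of the pathway showed a different distribution. Of 18 tested WNT ligands, R-spondins and secreted Frizzled-related proteins 1 was higher and 11 were lower in GFP+ (median -0.77). Wnt6 was the 1 that was higher, at 148, 144, 139 and 166 CPM in GFP+ and 110.4, 117, 113 and 119 CPM in GFP- (log2 fold change 0.38 ± 0.07, edgeR adjusted p = 0.00177), and its call ended with epithelial scaling (0.16). Wnt7b and Wnt10a, which epithelia make, were lower, with log2 fold changes of -0.38 ± 0.08 and -0.70 ± 0.09, and Wnt7b was not called over all 16 libraries (-0.27). Wnt2, Wnt2b and Wnt9a, which intestinal stroma, endothelium or macrophages can make, were lower, with values of -3.32 ± 0.46, -2.19 ± 0.27 and -2.48 ± 0.18. Wnt9a stood at 1.49, 1.81, 2.27 and 2.36 CPM in GFP+ and 11.5, 10.7, 11 and 10.6 CPM in GFP-. Rspo3, the main R-spondin of the crypt niche, was near the limit of detection, with means of 1.16 ± 0.481 and 1.43 ± 0.534 CPM in GFP+ and GFP-, and did not pass the test.

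Genes of the spindle and kinetochore lists were higher in GFP+ almost without exception. Of 27 spindle and mitotic kinase genes all 27 were higher (median 1.24), and 26 stayed higher with epithelial scaling (median 1.02). Of 23 kinetochore and centromere genes 22 were higher (median 1.21), 20 of them with epithelial scaling. The exception, Zwint, a kinetochore linker, was not lower by the test (-0.24 ± 0.09, edgeR adjusted p = 0.0601), though it passed as lower with epithelial scaling (-0.47), with a replicate block (-0.24), and without GFP+ replicate 2 (-0.30) or GFP- replicate 1 (-0.29). Cdk1, the kinase that starts mitosis, stood at 73.7, 63.7, 53.3 and 61.4 CPM in GFP+ and 29.1, 25.1, 22.6 and 23.4 CPM in GFP- (log2 fold change 1.33 ± 0.11, edgeR adjusted p = 4.98e-06). Prc1, which bundles microtubules of the central spindle, stood at 64.5, 53.4, 45.1 and 53.7 CPM in GFP+ and 24.8, 22.4, 24.1 and 21.1 CPM in GFP- (1.23 ± 0.11, edgeR adjusted p = 6.91e-06). Kif22, a kinesin that moves chromosomes, stood at 49.4, 43.5, 34.3 and 41.6 CPM in GFP+ and 19.7, 16.6, 15.6 and 16.3 CPM in GFP- (1.31 ± 0.12, edgeR adjusted p = 8.73e-06). GFP+ replicate 3 was the lowest GFP+ library for each of these 3 genes, still above the highest GFP- library. Ttk, a spindle checkpoint kinase, and Aspm, a spindle pole protein, had larger fold changes, of 1.69 ± 0.17 (edgeR adjusted p = 1.1e-05) and 1.64 ± 0.18 (edgeR adjusted p = 2.81e-05).

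The promoters of Cdk1, Prc1 and Kif22 are shown. These are the 3 eligible members of the mitotic lists with the smallest p. A member was eligible if its first promoter in the RefSeq table (GRCm38.p6) held 2 motifs known from late cell cycle promoters. These are the cell cycle homology element TTTGAA and the NF-Y box CCAAT. Genes on 1 chromosome were left out of the choice. Each runs 5′ to 3′ along the gene from 250 bases before the start to 25 after it, with both motifs in capitals on either strand (the reverse complements being TTCAAA and ATTGG). Their positions are chr10:69352888-69353162 on the minus strand for Cdk1, chr7:80294201-80294475 on the plus strand for Prc1, and chr7:127042396-127042670 on the minus strand for Kif22.
Cdk1: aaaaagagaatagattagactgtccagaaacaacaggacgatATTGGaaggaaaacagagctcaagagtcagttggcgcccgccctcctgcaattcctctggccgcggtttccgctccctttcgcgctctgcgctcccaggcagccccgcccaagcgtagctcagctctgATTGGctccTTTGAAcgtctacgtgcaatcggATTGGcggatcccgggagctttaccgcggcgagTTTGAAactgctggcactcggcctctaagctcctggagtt
Prc1: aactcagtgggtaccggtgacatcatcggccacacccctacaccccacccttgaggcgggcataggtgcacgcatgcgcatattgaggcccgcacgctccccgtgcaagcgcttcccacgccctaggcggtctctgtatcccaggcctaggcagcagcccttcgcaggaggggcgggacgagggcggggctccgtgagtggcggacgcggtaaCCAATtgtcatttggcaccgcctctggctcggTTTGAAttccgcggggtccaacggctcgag
Kif22: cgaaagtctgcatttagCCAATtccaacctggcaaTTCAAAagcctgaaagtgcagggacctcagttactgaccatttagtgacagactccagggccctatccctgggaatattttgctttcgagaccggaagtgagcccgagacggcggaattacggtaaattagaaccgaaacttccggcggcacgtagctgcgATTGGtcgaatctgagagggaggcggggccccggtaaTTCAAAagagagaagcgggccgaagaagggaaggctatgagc
The Cdk1 promoter holds 2 copies of TTTGAA and 3 of CCAAT, that of Prc1 1 of each, and that of Kif22 2 of each, some of which lie on the opposite strand.

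The same motifs were counted in the full promoters of the table, which hold 300 bases (250 before the start to 50 after it), as a description with no test. Shares are given beside those of all 32851 promoters and of the 16019 promoters of genes tested here. RefSeq promoters were matched for 44 of 50 mitotic genes, with 49 promoters. TTTGAA was in 29 of them (59.2%), beside 17.9% of all and 12.7% of those tested, and CCAAT in 37 (75.5%), beside 37.4% and 36.9%. Both were in 23 (46.9%), beside 6.95% and 4.95%. The replication genes, the lists of G1/S entry and of the replication fork together, gave 39 of 49 genes and 46 promoters. There TTTGAA was in 7 (15.2%) and CCAAT in 25 (54.3%). The E2F motif TTTNNCGC was in 21 (45.7%), beside 5.17% of all promoters, 7.42% of those tested and 12.2% of the mitotic ones. For the WNT list, 17 of 26 genes and 25 promoters were matched, and the TCF/LEF motif CTTTGA was in 3 (12%), beside 16% of all and 12.6% of those tested. CTTTGA can overlap TTTGAA by its last 5 letters, so a site can count for both. A match is not a bound site, and its absence says only that these letters are not in the window.

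Genes of DNA synthesis and repair were mostly higher, with smaller medians than the mitotic lists. Of 25 replication fork genes 23 were higher (median 0.60), of 24 genes of G1/S entry 16 were higher and 2 lower (0.54), and of 21 genes of homologous recombination and Fanconi repair 19 were higher (0.84). Pola1, the catalytic subunit of the primase polymerase, stood at 36, 39.9, 34.7 and 29.4 CPM in GFP+ and 18.3, 14.6, 17.2 and 12.7 CPM in GFP- (log2 fold change 1.15 ± 0.13, edgeR adjusted p = 3.47e-05). Clspn, which relays replication stress to the checkpoint, stood at 23.8, 21.5, 17 and 16.7 CPM in GFP+ and 9.41, 7.64, 7.29 and 7.89 CPM in GFP- (1.29 ± 0.15, edgeR adjusted p = 3.63e-05). Brca1, which directs repair by recombination, stood at 36.6, 31.5, 23.7 and 26 CPM in GFP+ and 13.9, 12.4, 12.8 and 12.2 CPM in GFP- (1.20 ± 0.14, edgeR adjusted p = 3.57e-05), and Rad54b, a motor of the same pathway, was 1.35 ± 0.15 higher. No library of either sort crossed into the other for these genes. The 2 lower members of the G1/S list were Rb1, the brake on entry into S phase (-0.65 ± 0.10, edgeR adjusted p = 0.000305), and E2f2, a factor that Rb1 restrains (-0.70 ± 0.16, edgeR adjusted p = 0.00414), which was not called over all 16 libraries (-0.60). Of 18 members of the anaphase-promoting complex and its regulators 8 were higher, among them the activator Cdc20 (1.16 ± 0.13) and the ubiquitin-conjugating enzyme Ube2c (1.42 ± 0.13), which are made in mitosis. The core subunits Anapc1, Anapc13, Cdc16 and Cdc23 were higher by less (0.24 ± 0.08, 0.35 ± 0.08, 0.20 ± 0.07 and 0.45 ± 0.10). Their calls ended with epithelial scaling (0.02, 0.14, -0.02 and 0.23), and those of Anapc1 and Cdc16 also in 6 of the 8 fits that left out a library (from 0.20 and 0.17). Of 26 ribosome biogenesis genes 14 were higher (median 0.29), but 3 with epithelial scaling. Dkc1, the pseudouridine synthase of ribosomal and telomerase RNA, was among the 3 (0.63 ± 0.10, and 0.41 with epithelial scaling).

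Brakes on division went both ways. Of 19 CDK inhibitors and p53 target genes 4 were higher and 10 lower in GFP+ (median -0.43). Cdkn2a, which encodes p16 and p19ARF, was higher, at 251, 263, 241 and 268 CPM in GFP+ and 162, 173, 153 and 126 CPM in GFP- (log2 fold change 0.74 ± 0.10, edgeR adjusted p = 8.67e-05), and no library overlapped. Cdkn1b, which encodes p27, was lower, at 59.5, 49.6, 49.3 and 69.3 CPM in GFP+ and 74.6, 74.5, 69 and 88.8 CPM in GFP- (-0.43 ± 0.12, edgeR adjusted p = 0.0128), with GFP+ replicate 4 inside the GFP- range. Cdkn1a, which encodes p21, did not pass the test. It stood at 119, 239.7, 271 and 99.7 CPM in GFP+ and 262, 393, 384 and 247 CPM in GFP- (-0.82 ± 0.35, edgeR adjusted p = 0.102), and replicates 2 and 3 were above replicates 1 and 4 in both sorts. Cdkn1a passed as lower with a replicate block (-0.91), with epithelial scaling (-1.06) and without GFP+ replicate 3 (-1.07). Mdm2, which degrades p53, stood at 70.7, 89.1, 86.5 and 68.7 CPM in GFP+ and 109.7, 131, 122 and 90.6 CPM in GFP- (-0.53 ± 0.12, edgeR adjusted p = 0.00529). Ccng1 and Zmat3, both p53 targets, were lower, with log2 fold changes of -0.47 ± 0.08 and -0.63 ± 0.11. Gtse1, a p53 regulator that is made in G2 phase, was the member with the largest rise (1.20 ± 0.16). The published naming includes loss of Trp53, and p53 activity was not tested. Most markers of stroma, vessels and leukocytes were also lower, as described below, and their part in the counts of this list was not tested.

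**Figure D3:**
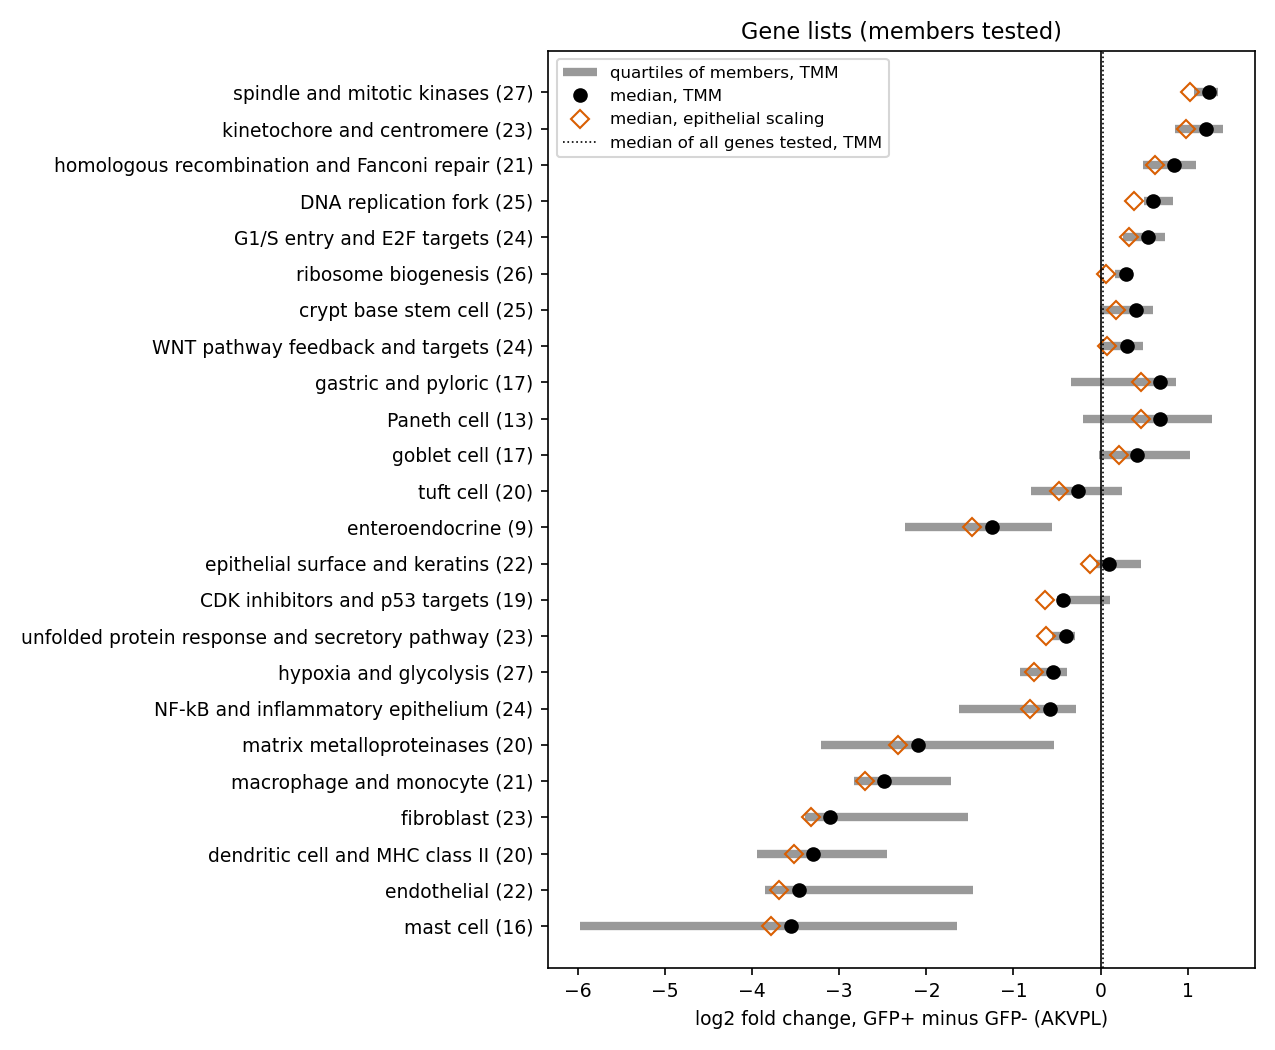
Median log2 fold change of GFP+ minus GFP- (horizontal) for 24 gene lists (vertical, number of members tested in brackets), with TMM scaling (black points, grey bars for the quartiles of members) and with epithelial scaling (open orange diamonds). Mitotic lists lie highest, at 1.24 and 1.21, the mast cell list lies lowest, at -3.55, and epithelial scaling moves each list to the left.

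Genes of secretory lineages differed by lineage and within each. Paneth cells are granule-rich neighbours of the stem cells, and 7 of 13 tested genes of that list were higher and 2 lower (median 0.68). Lyz1, the Paneth cell lysozyme, stood at 39.4, 52, 41.8 and 94.4 CPM in GFP+ and 8.99, 11.5, 10.4 and 20.6 CPM in GFP- (log2 fold change 2.18 ± 0.37, edgeR adjusted p = 0.002). It has a close copy, Lyz2 of macrophages, and reads unique to each gene were counted. Reg3b and Reg3g, antibacterial lectins that resemble each other in sequence, were higher by 1.74 ± 0.24 (edgeR adjusted p = 0.000485) and 1.60 ± 0.13 (edgeR adjusted p = 3.12e-06), and Mmp7, which activates defensins, by 0.69 ± 0.10. The defensins themselves were close to 0: Defa17, Defa22, Defa24 and Defa30 had 4, 4, 9 and 0 counts over the 4 GFP+ libraries and 0, 1, 0 and 0 over the GFP- ones. Of 17 goblet cell genes 7 were higher and 1 lower (median 0.42). Spdef, a transcription factor of secretory cells, stood at 39.9, 39.2, 41.1 and 39.987 CPM in GFP+ and 17.2, 20.1, 19.7 and 16.2 CPM in GFP- (1.12 ± 0.09, edgeR adjusted p = 3.72e-06), and the membrane mucin Muc4 at 21.7, 33.5, 24.3 and 28.2 CPM in GFP+ and 8.19, 7.84, 7.8 and 8.52 CPM in GFP- (1.74 ± 0.14, edgeR adjusted p = 3.48e-06). Muc2, the gel-forming mucin that defines goblet cells, was low and did not pass the test, at 0.423, 0.83, 1.21 and 0.548 CPM in GFP+ and 0.379, 18.8, 0.411 and 0.544 CPM in GFP-, with a single high library, GFP- replicate 2. Muc13, a membrane mucin, was 2.16 ± 0.57 higher, a call that ended without GFP- replicate 3 (1.99) or GFP- replicate 4 (2.05). In that gene too GFP- replicate 2 was the highest GFP- library (7.25 CPM against 1.9 to 2.36 CPM).

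Genes of the stomach were also detected. Of 17 tested gastric and pyloric genes 8 were higher and 1 lower in GFP+ (median 0.68), with the same counts under epithelial scaling (median 0.46). Vsig1, an adhesion protein of gastric epithelium, stood at 45.5, 45.5, 38.2 and 42 CPM in GFP+ and 21.7, 16.5, 16.8 and 14 CPM in GFP- (log2 fold change 1.30 ± 0.13, edgeR adjusted p = 1.11e-05), and Aqp5, a water channel of pyloric stem cells, at 61.8, 56.3, 60.1 and 66.6 CPM in GFP+ and 33.9, 33.9, 30.7 and 22.7 CPM in GFP- (1.01 ± 0.12, edgeR adjusted p = 4.28e-05). Ctse, an aspartic protease of gastric mucous cells, stood at 722, 645, 562 and 627 CPM in GFP+ and 450.5, 391, 417 and 338 CPM in GFP- (0.68 ± 0.10, edgeR adjusted p = 0.00029), a call lost over all 16 libraries (0.79). For these genes the sorts did not overlap. Gkn3, a secreted stomach protein, was 0.76 ± 0.11 higher. Psca, a surface protein of gastric epithelium, was the lower member (-1.42 ± 0.33). Sox2, a foregut factor, was near the limit of detection in both sorts (0.433 ± 0.206 and 0.398 ± 0.207 CPM).

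Tuft cells are chemosensory cells that signal through taste receptors, a phospholipase and the channel Trpm5. Of 20 tested tuft cell genes 4 were higher and 7 lower in GFP+ (median -0.26). The shares over all genes tested were 16.3% and 21.1%. The markers Avil and Trpm5 were present in both sorts and did not pass the test, with log2 fold changes of -0.01 ± 0.11 (edgeR adjusted p = 0.948) and -0.35 ± 0.18 (edgeR adjusted p = 0.167). Trpm5 passed as lower with a replicate block (-0.38), with epithelial scaling (-0.58) and without GFP+ replicate 3 (-0.56). Among the 7 lower genes Plcb2, the phospholipase of the cascade, stood at 146, 110.4, 272 and 119 CPM in GFP+ and 763, 710.2, 921 and 991 CPM in GFP- (-2.39 ± 0.30, edgeR adjusted p = 0.000404), and Gnat3, its G protein subunit gustducin, at 29.7, 20.7, 48.7 and 27.6 CPM in GFP+ and 148, 123, 159 and 198 CPM in GFP- (-2.31 ± 0.27, edgeR adjusted p = 0.000252). Pou2f3, the transcription factor that tuft cells need, stood at 52, 39.9, 74.1 and 55.9 CPM in GFP+ and 129, 108, 127 and 165 CPM in GFP- (-1.25 ± 0.19, edgeR adjusted p = 0.000592). For each of these 3 genes GFP+ replicate 3 was the highest GFP+ library, and no GFP+ library reached the GFP- range. In the other direction Chat, which makes acetylcholine, stood at 4.17, 5.26, 7.004 and 9.26 CPM in GFP+ and 1.52, 1.33, 1.95 and 1.27 CPM in GFP- (2.06 ± 0.28, edgeR adjusted p = 0.000106), and Ffar3, a receptor for short-chain fatty acids, was 1.51 ± 0.29 higher. Dclk1, a kinase used as a tuft cell marker, was 0.37 ± 0.11 (edgeR adjusted p = 0.0203) higher with overlapping groups; the call ended with epithelial scaling (0.15) and without GFP+ replicate 3 (0.30), GFP+ replicate 4 (0.35) or GFP- replicate 2 (0.32). Alox5, the lipoxygenase of leukotriene synthesis that leukocytes also express, was lower (-2.57 ± 0.26).

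Of 9 tested enteroendocrine genes 1 was higher and 7 lower in GFP+ (median -1.25), all from low levels except Cpe. Chgb, a protein of hormone granules, stood at 0.169, 0.0615, 0.0783 and 0.11 CPM in GFP+ and 5.88, 3.45, 1.64 and 0.725 CPM in GFP- (log2 fold change -4.76 ± 0.68, edgeR adjusted p = 0.000252), and Nts, the hormone neurotensin, at 0.141, 0.0307, 0.274 and 0.219 CPM in GFP+ and 3.53, 1.06, 1.54 and 1.36 CPM in GFP- (-3.57 ± 0.56, edgeR adjusted p = 0.000332). Tph1, the enzyme of serotonin synthesis that mast cells share, stood at 2.28, 1.57, 1.8 and 2.03 CPM in GFP+ and 6.22, 8.5, 12.4 and 6.34 CPM in GFP- (-2.13 ± 0.25, edgeR adjusted p = 4.26e-05). Cpe, which trims prohormones, stood at 198, 177, 144 and 175 CPM in GFP+ and 268, 262, 225 and 269.6 CPM in GFP- (-0.56 ± 0.10, edgeR adjusted p = 0.000905), a call lost over all 16 libraries (-0.45). In all 4 genes the lowest GFP- library lay above the highest GFP+ library. Neurog3, the factor that starts this lineage, had 1 count over GFP+ and 10 over GFP-, too few to be tested.

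**Figure D4:**
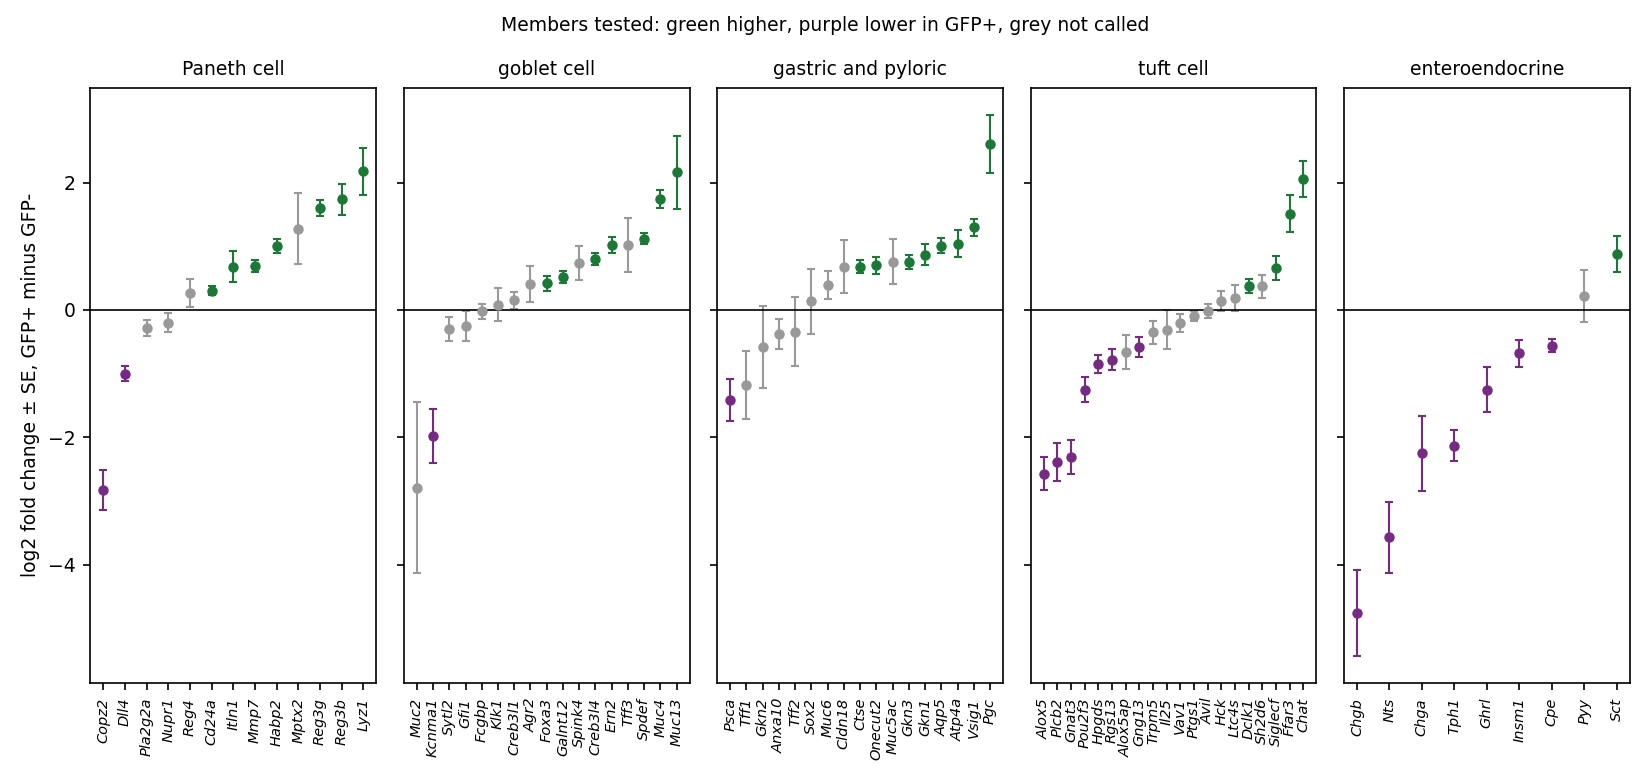
Log2 fold change of GFP+ minus GFP- with its SE (vertical) for each tested member (horizontal) of 5 lists of secretory and gastric genes, green where higher in GFP+, purple where lower and grey where not called. Paneth and gastric genes lie mostly above 0, tuft genes run from -2.57 (Alox5) to 2.06 (Chat), and 7 of 9 enteroendocrine genes lie below 0.

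Genes of absorptive cells varied widely in level, and 17 of the 29 listed had enough counts to be tested. Of 17 tested 5 were higher and 1 lower, beside 16.3% and 21.1% of all genes tested. Apob, the carrier protein of chylomicrons, stood at 173, 185, 191 and 191 CPM in GFP+ and 135, 81, 71.9 and 96.7 CPM in GFP- (log2 fold change 0.94 ± 0.17, edgeR adjusted p = 0.00136), and Mgam, a brush border glucosidase, at 45.9, 47.9, 42.9 and 43.3 CPM in GFP+ and 23.5, 15.6, 17.4 and 23.3 CPM in GFP- (1.18 ± 0.13, edgeR adjusted p = 2.72e-05). The brush border sucrase Sis had 0 counts over GFP+ and 3 over GFP-, and colonic Car1 had 0 and 4. S100g, the calcium carrier of the small intestine and a target of vitamin D, stood at 30.5, 22.8, 39.7 and 51.2 CPM in GFP+ and 4.63, 2.47, 15 and 9.97 CPM in GFP- (2.20 ± 0.53, edgeR adjusted p = 0.012). Its receptor and partner went the other way: Vdr, the vitamin D receptor, stood at 11.9, 12.8, 13.1 and 9.91 CPM in GFP+ and 32.8, 48.1, 43.2 and 17.5 CPM in GFP- (-1.58 ± 0.27, edgeR adjusted p = 0.00164), and the calcium channel Trpv6 at 3.35, 2.12, 2.35 and 2.52 CPM in GFP+ and 5.2, 4.9, 7.6 and 10.9 CPM in GFP- (-1.44 ± 0.27, edgeR adjusted p = 0.00127). Bglap3, a gene of the osteocalcin cluster, had the largest fold change with epithelial scaling among higher genes of at least 10 CPM in GFP+ (2.65). It stood at 11.2, 9.74, 12.2 and 26 CPM in GFP+ and 1.71, 1.72, 2.31 and 2.72 CPM in GFP- (2.83 ± 0.34 with TMM, edgeR adjusted p = 8.58e-05), highest in GFP+ replicate 4. Its neighbours Bglap and Bglap2, which share sequence with it, had 4 and 0 counts over GFP+ and 15 and 2 over GFP-, so reads may be split between the copies.

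Genes were next taken from those with the smallest p among genes higher at least 2-fold with no overlap of the sorts. That choice itself favours tightly grouped libraries. Capn6, a calpain without protease activity, stood at 42.5, 40.9, 36 and 41.4 CPM in GFP+ and 11.8, 9.52, 10.9 and 10.8 CPM in GFP- (log2 fold change 1.90 ± 0.10, edgeR adjusted p = 5.67e-07). Otop3, a proton channel, stood at 51.9, 50.3, 45.4 and 52 CPM in GFP+ and 15.1, 16.9, 14.1 and 10.1 CPM in GFP- (1.82 ± 0.13, edgeR adjusted p = 2.02e-06), and Sectm1b, a secreted and membrane protein that binds CD7, at 27.2, 28.4, 31.7 and 35.7 CPM in GFP+ and 8.42, 8.47, 9.6 and 8.97 CPM in GFP- (1.79 ± 0.12, edgeR adjusted p = 1.22e-06). Enpp2, or autotaxin, which makes lysophosphatidic acid, stood at 254, 251, 211 and 232 CPM in GFP+ and 90.4, 77.8, 76.6 and 56.3 CPM in GFP- (1.65 ± 0.13, edgeR adjusted p = 2.87e-06). Fstl4, of the follistatin family, stood at 79.2, 84.5, 69.5 and 89.2 CPM in GFP+ and 19.3, 19.2, 15 and 26.3 CPM in GFP- (2.03 ± 0.15, edgeR adjusted p = 2.51e-06). The GFP+ values of each of these genes were over 2 times the highest GFP- value in all 4 libraries. Iqgap3, a scaffold of dividing cells, was 1.49 ± 0.11 higher, and the receptor phosphatase Ptprd 1.09 ± 0.08 higher. These genes also remained higher with epithelial scaling, with values from 0.86 (Ptprd) to 1.80 (Fstl4). Rn7sk, a small nuclear RNA with many genomic copies, was second to Bglap3 with epithelial scaling (2.21), but its libraries were scattered and overlapped, at 118, 251, 408 and 50.7 CPM in GFP+ and 29.3, 42.8, 56.7 and 19.5 CPM in GFP-.

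Of 24 tested genes of fetal and regenerating epithelium 5 were higher and 10 lower (median -0.22). Over all genes tested 16.3% were higher and 21.1% lower. Clu, clusterin, a marker of revival stem cells after injury and one of the most abundant transcripts, stood at 18202, 17744, 17613 and 16164 CPM in GFP+ and 10109, 9492, 9918 and 7085 CPM in GFP- (log2 fold change 0.93 ± 0.12, edgeR adjusted p = 9.7e-05). Emp1, a membrane protein of damaged epithelium, stood at 508, 822, 909 and 439 CPM in GFP+ and 1119.9, 1316, 1276 and 1284 CPM in GFP- (-0.90 ± 0.22, edgeR adjusted p = 0.0105), with GFP+ replicates 2 and 3 above the other GFP+ libraries. The sorts did not overlap for either gene. Among 21 genes of YAP and TEAD signalling 2 were higher and 9 lower (median -0.10), with Yap1 itself 0.41 ± 0.08 higher (not called with epithelial scaling, 0.18) and the secreted target Ccn2 lower (-1.14 ± 0.19). Fibroblast and endothelial markers were also mostly lower, as described below, and their part in these counts was not tested. Of 19 tested squamous genes 1 was higher and 9 lower. Krt4 was the higher one (0.64 ± 0.13), and Sprr2f, a protein of cornified cells with close copies, the one that fell most, at 0.169, 0.0922, 0.117 and 0.11 CPM in GFP+ and 4.7, 6.62, 5.49 and 16.4 CPM in GFP- (-5.97 ± 0.53, edgeR adjusted p = 9.32e-06).

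Growth factor genes were described by role. Of 14 EGF family ligands and receptors 4 were higher and 3 lower, beside 16.3% and 21.1% of all genes tested. Among ligands Btc, betacellulin, stood at 41.8, 42.7, 40.7 and 35.4 CPM in GFP+ and 25.1, 24.9, 22.4 and 22.8 CPM in GFP- (log2 fold change 0.75 ± 0.09, edgeR adjusted p = 4.96e-05), while Areg and Hbegf did not pass the test (-0.06 ± 0.47 and 0.13 ± 0.25). Among receptors Erbb2 was higher, at 189, 154, 153 and 174 CPM in GFP+ and 118, 105, 102 and 112 CPM in GFP- (0.61 ± 0.09, edgeR adjusted p = 0.000175), and Egfr lower, at 39.4, 39.2, 36.4 and 25.1 CPM in GFP+ and 75.6, 80.5, 65.7 and 90.6 CPM in GFP- (-1.15 ± 0.14, edgeR adjusted p = 8.53e-05). Stromal fibroblasts also express Egfr. Of 20 members of the TGF-beta list 14 were lower and 0 higher (median -0.85), and all 4 values of the ligand Tgfb1 fell below the GFP- range, at 57.9, 52.7, 65.9 and 50.012 CPM in GFP+ and 189, 217, 253 and 139 CPM in GFP- (-1.82 ± 0.17, edgeR adjusted p = 2.09e-05). The receptors Tgfbr1 and Tgfbr2 were lower, with log2 fold changes of -0.80 ± 0.11 and -0.36 ± 0.08, the latter not called over all 16 libraries (-0.26). Of 19 BMP genes 12 were lower and 0 higher (median -0.62), among them the ligand Bmp2 (-1.59 ± 0.23) and the target Id3, at 46.2, 52.3, 64.3 and 53.5 CPM in GFP+ and 97.4, 103, 108 and 88.5 CPM in GFP- (-0.88 ± 0.10, edgeR adjusted p = 4.24e-05). The ligand Bmp7 and the target Id1 did not pass the test (0.03 ± 0.08 and 0.01 ± 0.12). Of 21 Notch genes 1 was higher and 10 lower (median -0.31). The ligand Jag1 was lower (-1.16 ± 0.19), as was the target Heyl, which vascular cells express (-4.32 ± 0.36). The receptor Notch1 and the main epithelial target Hes1 did not pass the test (0.22 ± 0.13 and 0.16 ± 0.09). The ligand and receptor lists hold genes of stroma, vessels and leukocytes, whose markers moved in the same direction as described below, and their part in these counts was not tested.

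Genes of hypoxia, protein folding and inflammation were mostly lower in GFP+. Of 27 hypoxia and glycolysis genes 20 were lower and 0 higher (median -0.55). Vegfa, the angiogenic factor, stood at 263, 277, 281 and 282 CPM in GFP+ and 554, 716, 558 and 852 CPM in GFP- (log2 fold change -1.28 ± 0.13, edgeR adjusted p = 1.45e-05). P4ha1, a collagen prolyl hydroxylase, stood at 78.6, 95.5, 94.3 and 86.7 CPM in GFP+ and 184, 226, 199 and 280 CPM in GFP- (-1.32 ± 0.12, edgeR adjusted p = 9.7e-06), and Ero1a, an oxidase of the endoplasmic reticulum, at 72.4, 107, 73.4 and 79.7 CPM in GFP+ and 148, 230.4, 153 and 387 CPM in GFP- (-1.46 ± 0.32, edgeR adjusted p = 0.00799), highest in GFP- replicate 4. The sorts did not overlap for these 3 genes. Of 23 genes of the unfolded protein response 16 were lower and 1 higher (median -0.40). The lower ones included Edem1, which clears misfolded glycoproteins, at 69.3, 70.2, 79.1 and 60.036 CPM in GFP+ and 130.2, 147, 148 and 124 CPM in GFP- (-0.98 ± 0.10, edgeR adjusted p = 1.07e-05), and the chaperone Hspa5, -0.57 ± 0.16. The higher one was Ern2, the stress sensor of goblet cells, at 26.3, 35.2, 28.9 and 32.3 CPM in GFP+ and 15.7, 17.6, 12.6 and 14.5 CPM in GFP- (1.02 ± 0.13, edgeR adjusted p = 6.75e-05). Of 24 NF-kB and inflammatory genes 14 were lower and 0 higher (median -0.58), with Il1b, which myeloid cells make, at 29.4, 84.2, 97.1 and 56.3 CPM in GFP+ and 275, 393, 428 and 305 CPM in GFP- (-2.39 ± 0.36, edgeR adjusted p = 0.00109). Of 23 immediate early genes 7 were lower, and Fos, Jun and Egr1 did not pass the test (-0.05 ± 0.11, -0.14 ± 0.10 and 0.02 ± 0.14), while 16 were lower with epithelial scaling. Of 29 ribosomal protein genes 0 passed in either direction (0 with DESeq2's Wald test, and 0 at an unadjusted p under 0.05), although 7 were lower with epithelial scaling, and of 28 nuclear genes of the respiratory chain 3 were higher. The macrophage, dendritic cell, fibroblast and endothelial markers were also mostly lower (list medians from -3.46 to -2.49), and their part in the counts of these lists was not tested. Gapdh, Pgk1 and many ribosomal protein genes have near-identical processed copies in the genome, so their counts of unique reads are uncertain.

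Most markers of stroma, vessels and leukocytes were lower in GFP+. Mast cells store proteases in granules, and 15 of 16 tested genes were lower (median -3.55). Tpsab1, a mast cell tryptase with a close copy, Tpsb2, stood at 0.197, 0.338, 0.43 and 0.931 CPM in GFP+ and 38.4, 62.4, 86.2 and 31.3 CPM in GFP- (log2 fold change -7.01 ± 0.51, edgeR adjusted p = 2.17e-05), and Cpa3, their carboxypeptidase, at 0.394, 0.738, 1.02 and 3.18 CPM in GFP+ and 48.2, 63.7, 112 and 83.8 CPM in GFP- (-6.04 ± 0.55, edgeR adjusted p = 6.95e-05). The summed level of the list ran from 108.4 to 188.1 CPM in GFP+ and from 733.7 to 1317.9 CPM in GFP-. Of 20 dendritic cell and MHC class II genes 19 were lower (median -3.30). Cd74, the class II invariant chain, stood at 109, 176, 294 and 132 CPM in GFP+ and 2219.9, 3174, 3507 and 1451 CPM in GFP- (-3.86 ± 0.42, edgeR adjusted p = 0.000165), and Ccl17, a chemokine of dendritic cells, at 5.1, 5.96, 9.66 and 3.45 CPM in GFP+ and 216, 249, 329 and 114 CPM in GFP- (-5.22 ± 0.43, edgeR adjusted p = 3.84e-05). Their sum ran from 215.4 to 562.9 CPM in GFP+ and from 2700.6 to 6757.2 CPM in GFP-. Of 21 macrophage and monocyte genes 19 were lower (median -2.49), summing to 547.0 to 1586.6 CPM in GFP+ and 3680.7 to 5867.6 CPM in GFP-. GFP+ replicate 3 had the highest GFP+ sum in each of these 3 lists. Without it 6326 genes differed instead of 6488.

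Of 23 tested fibroblast genes 18 were lower (median -3.10), and Col1a1, the main fibrillar collagen, stood at 156, 198, 356 and 257 CPM in GFP+ and 2679, 2545, 3685 and 1381 CPM in GFP- (log2 fold change -3.41 ± 0.37, edgeR adjusted p = 0.000169). Fn1, fibronectin, which made up most of that list's sum in GFP+, stood at 8039.8, 7095, 6062 and 6389.7 CPM in GFP+ and 9269, 8125, 7520.5 and 8294 CPM in GFP- and did not pass the test (-0.27 ± 0.11, edgeR adjusted p = 0.0837), but did as lower with a replicate block (-0.27), with DESeq2's Wald test (-0.28), with epithelial scaling (-0.49) and without GFP+ replicate 1 (-0.35). The list's sum ran from 7656.2 to 8904.9 CPM in GFP+ and from 14076.7 to 19774.0 CPM in GFP-. Of 22 endothelial genes 19 were lower and 1 higher (median -3.46), with Pecam1, an adhesion molecule of endothelium, at 9.41, 5.72, 12.4 and 5.64 CPM in GFP+ and 111, 62.6, 85.9 and 62.5 CPM in GFP- (-3.28 ± 0.32, edgeR adjusted p = 8.47e-05). The 1 higher was Sox17 (0.38 ± 0.13), a factor also known in endoderm, whose call ended with epithelial scaling (0.17) and without GFP+ replicate 1 or 4 or GFP- replicate 2, 3 or 4 (0.26 to 0.41), with the stricter filter (0.37) and with the deposited RPKM (0.38). Sox17 and Prox1, the latter also a WNT target in intestinal tumours, were the most abundant of the list in GFP+, at 239.6 ± 43.1 and 324 ± 48.8 CPM. Prox1 did not pass (0.33 ± 0.18), but passed as higher with a replicate block (0.35) and without GFP- replicate 4 (0.51). The sum of the endothelial list ran from 689.3 to 846.9 CPM in GFP+ and from 1040.7 to 1757.7 CPM in GFP-, and that of the 20 smooth muscle and pericyte genes from 239.2 to 301.4 and from 638.6 to 1108.5 CPM. Of 15 tested neutrophil genes 11 were lower and 1 higher, summing to 277.0 to 347.8 CPM and 560.3 to 762.7 CPM. T cell and NK cell markers were scarce in both sorts. Of 11 tested 4 were lower, Cd8b1 was at 0 in all 8 libraries, and Cd3d and Cd3g had at most 1 count in a sort. Over these 8 lists 3 markers were at 0 counts over GFP+ and 3 over GFP-.

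**Figure D5:**
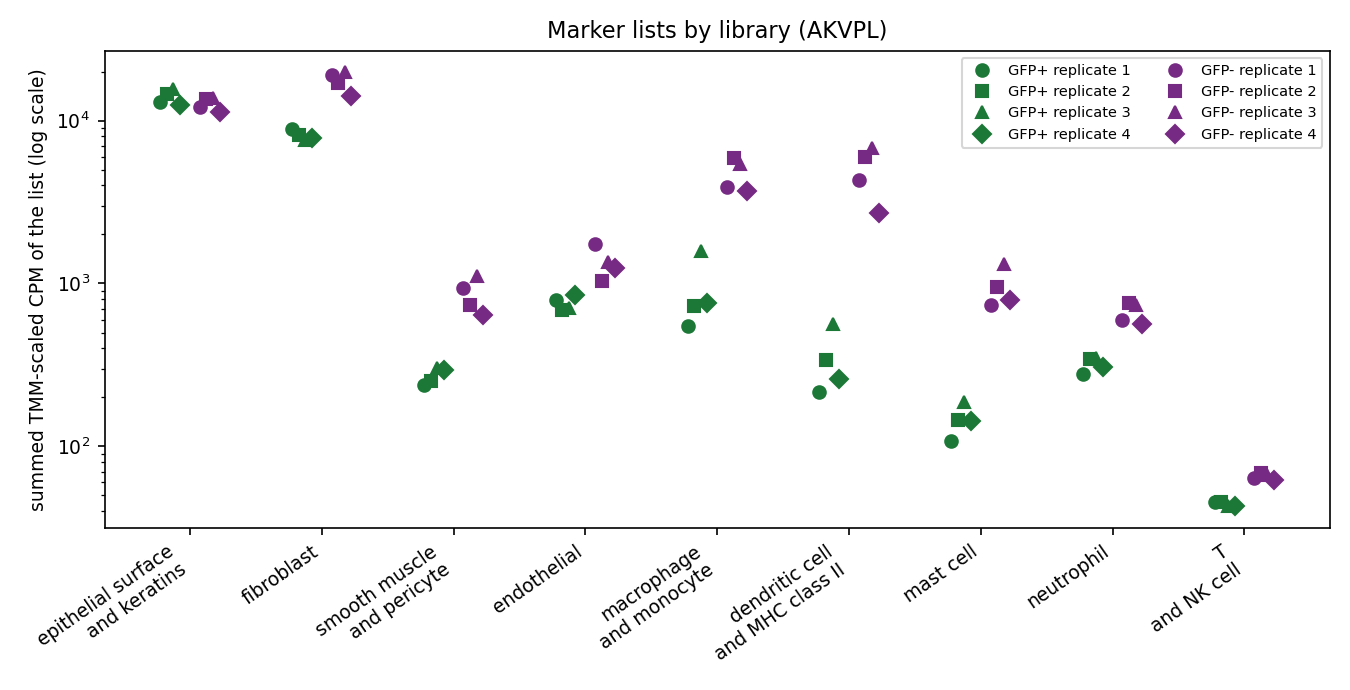
Summed TMM-scaled CPM (vertical, log scale) of 9 marker lists (horizontal) in each of the 8 libraries, green for GFP+ and purple for GFP-, with a symbol per replicate number. Epithelial sums overlap between sorts, while for the 7 lists from fibroblast to neutrophil each GFP- library lies above every GFP+ library, as it does for T and NK cell genes at far lower levels.

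The smallest p-values were on the lower side. Adcy7, an adenylyl cyclase of leukocytes, stood at 12.1, 12.4, 16.6 and 15.4 CPM in GFP+ and 81.5, 96.1, 83.2 and 88.1 CPM in GFP- (log2 fold change -2.63 ± 0.12, edgeR adjusted p = 2.52e-07). Mxra7, a matrix remodelling protein, stood at 2.00, 1.66, 1.92 and 2.25 CPM in GFP+ and 24.8, 22.9, 32.9 and 23.4 CPM in GFP- (-3.74 ± 0.17, edgeR adjusted p = 2.52e-07), and Emilin1, an elastic fibre protein, at 5.18, 5.01, 7.94 and 6.14 CPM in GFP+ and 58.4, 60.5, 65.6 and 50.1 CPM in GFP- (-3.28 ± 0.15, edgeR adjusted p = 2.52e-07). Ednra, the endothelin receptor of smooth muscle and fibroblasts, stood at 1.13, 1.32, 1.996 and 1.59 CPM in GFP+ and 25.3, 18.3, 21.2 and 19.7 CPM in GFP- (-3.83 ± 0.19, edgeR adjusted p = 5.08e-07). GFP- values were at least 4 times every GFP+ value in each of these genes. Of 27 chemokine ligands 16 were lower and 0 higher (median -1.52). Of 26 basement membrane and matrix genes 20 were lower and 2 higher (median -1.29). The 2 were Agrn, a heparan sulphate proteoglycan, at 1481, 1468, 1391 and 1469 CPM in GFP+ and 1081, 913, 942 and 1065 CPM in GFP- (0.54 ± 0.08, edgeR adjusted p = 0.000328), and Col4a5, a collagen of basement membranes, at 33.7, 34.7, 27.6 and 38.9 CPM in GFP+ and 17.8, 17.3, 15.1 and 21.2 CPM in GFP- (0.92 ± 0.13, edgeR adjusted p = 0.00014). Of 20 matrix metalloproteinases and inhibitors 15 were lower and 3 higher (median -2.10). Mmp9, of neutrophils and macrophages, was lower (-4.33 ± 0.44), and Mmp28, an epithelial enzyme, was higher, at 23.7, 20.6, 18.8 and 20.7 CPM in GFP+ and 11.9, 12, 11 and 8.88 CPM in GFP- (0.93 ± 0.13, edgeR adjusted p = 0.00012). The transcript of the inactive X chromosome, Xist, was lower in GFP+, at 5.94, 11, 18.8 and 15.1 CPM in GFP+ and 81.4, 104, 98.1 and 143 CPM in GFP- (-3.08 ± 0.35, edgeR adjusted p = 0.000229). It moved with the markers of stroma and leukocytes above, and their part in it was not tested.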

How the data were processed

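RNA was extracted from sorted cells with a column kit for small samples and sequenced as total RNA, per the labels' protocols. The deposited counts are reads that align uniquely to a gene model, per the file headers, and GSNAP and GRCm38 are named in the submitters' processing notes, without their roles. For strand setting and annotation version, nothing is given in the sources used here. Size-factor-adjusted RPKM values were also deposited by the authors, per the file headers, and served only in an alternative. Unique alignment lowers the counts of genes with near-identical copies.

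Of 36528 gene IDs 31049 (85.0%) matched a RefSeq symbol (GRCm38.p6), and unmatched IDs held 1.379% to 1.474% of counts. Counts of the 8 libraries were fitted in edgeR 4.0.16 (R 4.3.3) with filterByExpr, TMM and robust quasi-likelihood tests, with Benjamini-Hochberg adjustment over all 17365 genes. The SE is the absolute log2 fold change divided by the square root of F. The procedure was run on simulated counts with few changed genes, as many higher as lower. That setting lacks the imbalance of these data, so it does not check the scaling. Medians of lists are over members tested, and no set test was run. The alternatives were DESeq2 1.42.0 size factors and Wald test, library totals, epithelial scaling, no filter and a stricter filter, limma 3.58.1 on log2 of the deposited RPKM plus a pseudocount of 1, all 16 libraries, a replicate block, each library left out, and a test against a fold of 1.5.

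The replicate numbers come from the sample names in the labels. Same-numbered libraries deviated together (r across 10868 genes of 0.504, 0.286, 0.450 and 0.149 for numbers 1 to 4). The printed p-values and SEs come from the fit without pairs, and the replicate block is an alternative. GFP- replicates 2 and 4 correlated more with another number (0.336 and 0.206), so the check does not settle that the numbers pair the samples. Named genes were the sort markers and genotype genes, the 12 with the smallest p each way (at least 2-fold, at least 10 CPM, no overlap), up to 4 called members per list in its main direction and up to 2 in the other, and the 10 largest under both scalings. Of 157 genes with fold changes or levels, 54 lie outside that rule and were picked with their values in view. Results on some genes are not reported here. The members and lists were chosen with earlier results of these data known.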

Additional observations from a re-analysis of the deposited data

Results flagged for a closer look

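In 13 of 400 groups of 4 libraries, over the genes and list sums with printed values, 1 library stood apart from the other 3 by Dixon's criterion. Chance alone flags about 1 in 20 groups.

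GFP- replicate 2 had 18.8 CPM of Muc2, where the other GFP- libraries had at most 0.544, and 7.25 CPM of Muc13, where they had at most 2.36. GFP+ replicate 4 was the highest for Bglap3 (26.0 CPM, the others at most 12.2) and for Nkd1 (601.4 CPM, the others at most 482.4).

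GFP+ replicate 3 was the highest GFP+ library for the sum of the metalloproteinase list (1401.5 CPM, the others at most 1293.7), and the lowest for Agrn (1390.9 CPM, the others at least 1467.5). GFP+ replicate 2 was the highest for Cdx2, at 1.87 CPM. GFP- replicate 3 was the lowest for Cpe (224.8 CPM) and with it for the sum of the enteroendocrine list (257.4 CPM). GFP- replicate 4, the shallowest library, was the lowest for Anapc13 (27.7 CPM, the others at least 32.5) and the highest for Sprr2f (16.4 CPM) and the lowest for the sum of the fetal and regenerative list (16528.8 CPM, the others at least 20886.8), with Clu also lowest there at 7085 CPM. It was also the highest GFP- library for Dnmt1, at 98.1 CPM, where the others had 91.1 to 91.7.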

How the results depend on the processing

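The count of 6488 genes, and its parts of 2831 higher and 3657 lower, moved by over 1.5 times under few settings. Against a fold of 1.5, 2378 genes passed, 358 higher and 2020 lower, a stricter question by construction. With epithelial scaling 778 were higher. With the replicate block 7307 genes passed, 3307 higher and 4000 lower, and among the 157 genes with printed values it ended no call and added 7 (Axin2, Cdkn1a, Fn1, Prox1, Trp53, Trpm5 and Zwint). Without each library in turn, 5433 to 6852 genes passed, 2109 to 3067 higher and 3324 to 3785 lower, the extremes being without GFP- replicates 2 and 4. Of those 157 genes, 7 lost a call in at least 1 such fit and 8 gained one. For 1 called gene the estimate changed sign under a setting run. Cdc16, called at 0.20, stood at -0.02 with epithelial scaling, where it was not called. The test against a fold of 1.5 ended the call of 46, epithelial scaling that of 11 besides Cdc16 and the fit over all 16 libraries that of 7. The GFP- replicate 4 library has 10.881 M counts against 34.502 M in the deepest, so its low counts are the least precise.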

Other observations

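Of 23 tested genes of chromatin and DNA methylation 4 were higher, beside 16.3% of all genes tested, and 2 lower (median 0.10), with 3 higher and 5 lower with epithelial scaling. Uhrf1, which guides the methyltransferase to newly copied DNA, stood at 31.1, 29.4, 28.8 and 26 CPM in GFP+ and 18, 16.9, 19.2 and 15.8 CPM in GFP- (log2 fold change 0.72 ± 0.10, edgeR adjusted p = 0.000139). Dnmt1, that methyltransferase, was 0.57 ± 0.07 higher, and Ezh2, which methylates histone H3, 0.56 ± 0.09 higher.

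Of 19 tested NRF2 and glutathione genes 5 were higher and 4 lower, with 3 and 7 under epithelial scaling. The shares over all genes tested were 16.3% and 21.1%, and 4.48% and 30.0% under epithelial scaling. The conjugating enzyme Gsta4 stood at 126, 132, 129 and 135 CPM in GFP+ and 74.3, 80.1, 84.5 and 56.8 CPM in GFP- (0.82 ± 0.11, edgeR adjusted p = 9.02e-05) and Gstm3, of the same superfamily, was 1.28 ± 0.22 higher, while Hmox1, which breaks down haem and is abundant in macrophages, was lower (-1.31 ± 0.34), a call that ended with no filter on low counts (-1.27). Of 24 genes of the integrated stress response 2 were higher and 9 lower, and the largest fall was that of Chac1, which degrades glutathione, at 1.13, 1.78, 1.45 and 1.15 CPM in GFP+ and 3.45, 4.78, 6.11 and 5.08 CPM in GFP- (-1.80 ± 0.25, edgeR adjusted p = 0.000124).

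Of 28 genes of MHC class I and interferon response 5 were higher and 7 lower (median 0.03), but 0 were higher and 12 lower with epithelial scaling. Over all genes tested 16.3% were higher and 21.1% lower, and 4.48% and 30.0% with epithelial scaling. The immunoproteasome subunit Psmb8 had the largest fall (-2.07 ± 0.23). Of 20 genes of MAPK output 4 were higher and 1 lower, but 1 and 7 with epithelial scaling, and the lower member was the factor Etv1 (-0.95 ± 0.29), a call that ended without GFP+ replicate 1 or 2 or GFP- replicate 1 or 4 (-0.93 to -0.76), and with limma on the deposited RPKM, where the value was -0.20.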
